A study of Mus musculus with 4 samples.

Results

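The nuclear genes of oxidative phosphorylation were followed through the first week after muscle injury in mice that form bone in their muscle. Members were chosen by symbol alone: every gene whose symbol starts with Nduf, Uqcr, Atp5, Cox4i, Cox5, Cox6, Cox7 or Cox8, together with Sdha, Sdhb, Sdhc and Sdhd, and without the rows marked as pseudogenes by "-ps". This gave 93 members among 32285 genes. They comprised 36 subunits of complex I, 8 assembly factors of complex I, 4 subunits of complex II, 8 of complex III, 18 of complex IV and 17 of complex V, and Ndufa4 with its paralogue Ndufa4l2 made up the remaining pair. Cox8c had no UMI in any kept cell, Cox7b2 had 3 UMIs over all 4 libraries, and the other members were measured in every library.

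The mice carried the Nse-Bmp4 transgene, in which the rat Nse promoter drives Bmp4, on a C57BL/6 background, and were 6 to 8 weeks old. All groups carried the transgene, the uninjured group included, so no comparison here is with a wild-type animal. Tibial muscle was taken before injury (Uninjured) or 1, 3 and 7 days after an injection of cardiotoxin (1 dpi, 3 dpi and 7 dpi), and cells freed with collagenase were profiled by droplet single-cell RNA sequencing. Each group was 1 library pooled from 3 tibial muscles. A difference between time points and a difference between libraries therefore cannot be told apart, no test of a time point was possible, and the intervals given below are exact 95% intervals that cover counting error only.

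The libraries held 11722 to 23752 cell barcodes and 91146335 to 129007669 UMIs (unique molecular identifiers, each standing for 1 captured transcript). The median depth was 8629 UMIs per cell in the Uninjured library, 5561 at 1 dpi, 4214 at 3 dpi and 3083 at 7 dpi. After filtering, 9641 to 20300 cells were kept per library, and 81.0% to 96.2% of these fell into a class set by marker genes. Pairs of libraries shared 30 to 95 barcodes. Intact muscle fibres are too large for droplets, and the muscle class was followed mainly in its Pax7 positive and Myog positive cells, with 72 to 174 cells in each group and library used. These were 174 and 109 of 364 muscle cells at 3 dpi and 105 and 72 of 202 at 7 dpi. The remaining muscle cells had a UMI of neither gene. No chondrocyte-like cell was gated before 7 dpi, where there were 5094 of them beside 9736 other mesenchymal cells.

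Oxidative phosphorylation makes most of the ATP of resting cells. Complexes I and II pass electrons from NADH and succinate into the inner mitochondrial membrane, complex III passes them to cytochrome c, complex IV hands them to oxygen, and complex V uses the resulting proton gradient to make ATP. Complex II is encoded wholly in the nucleus, whereas the other complexes combine nuclear subunits with subunits encoded in mitochondrial DNA. Several subunits of complex IV exist as a widely expressed form and a form restricted to certain tissues, such as Cox4i1 and Cox4i2, the latter known from lung and from oxygen-sensing cells, or Cox6a1 and Cox6a2, the latter known from heart and skeletal muscle. Chondrocytes are known for living at low oxygen and relying on glycolysis.

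Nuclear respiratory factor 1 (NRF1) and the ETS family protein GABP, also named NRF2, are textbook regulators of these genes, and promoters that hold both of their motifs are printed because such motifs were more frequent among the members than among all promoters. RefSeq promoters of the GRCm38.p6 assembly, running from 250 bases before to 50 bases after each start, were matched for 76 members. The NRF1 letters GCGCATGC, or GCATGCGC on the other strand, occurred in 12 of these 76 promoters (15.8%), against 3.05% of the promoters of 27025 genes. The ETS core CCGGAAG, or CTTCCGG on the other strand, occurred in 19 of 76 (25%), against 9.93%. The 5 members with both motifs were Atp5k, Atp5l, Cox6a1, Sdhb and Uqcr11. The promoters of the 3 most abundant of them in Uninjured mesenchymal cells are printed 5′ to 3′ on the coding strand, with the motifs in capitals.
Atp5l: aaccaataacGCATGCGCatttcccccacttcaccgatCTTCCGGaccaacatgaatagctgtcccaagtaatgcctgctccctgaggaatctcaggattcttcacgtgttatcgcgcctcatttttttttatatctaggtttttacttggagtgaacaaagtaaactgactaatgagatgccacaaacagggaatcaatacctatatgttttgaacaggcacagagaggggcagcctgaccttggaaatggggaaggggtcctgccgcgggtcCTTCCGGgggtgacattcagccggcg
Uqcr11: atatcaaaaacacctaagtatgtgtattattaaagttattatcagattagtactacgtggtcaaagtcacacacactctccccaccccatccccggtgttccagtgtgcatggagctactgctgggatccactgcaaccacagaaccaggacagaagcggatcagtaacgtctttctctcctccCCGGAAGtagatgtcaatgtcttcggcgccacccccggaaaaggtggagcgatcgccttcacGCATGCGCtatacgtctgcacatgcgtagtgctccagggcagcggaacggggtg
Atp5k: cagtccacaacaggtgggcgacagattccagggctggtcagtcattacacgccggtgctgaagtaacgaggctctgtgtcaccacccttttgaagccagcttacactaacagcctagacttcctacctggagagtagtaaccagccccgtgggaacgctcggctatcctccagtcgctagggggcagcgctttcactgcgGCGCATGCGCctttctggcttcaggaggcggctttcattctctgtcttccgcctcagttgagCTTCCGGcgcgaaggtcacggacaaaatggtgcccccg

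The Atp5l promoter (subunit g of complex V, chr9:44920693-44920992, minus strand) held an NRF1 motif that begins 240 bases before the start and ETS cores 212 bases before and 25 bases after it. The Uqcr11 promoter (a small subunit of complex III, chr10:80406772-80407071, minus strand) held an ETS core 66 bases before and an NRF1 motif 4 bases before the start. The Atp5k promoter (subunit e of complex V, chr5:108434350-108434649, minus strand) held the NRF1 letters on both strands, overlapping at 50 and 48 bases before the start, and an ETS core 13 bases after it. A match of letters is a description and not a binding site. Between 3 dpi and 7 dpi, a step described further on, the median log2 ratio in mesenchymal cells was 0.28 for the 12 measured members with the NRF1 motif and 0.33 for 62 without, and it was 0.34 for the 19 with the ETS core and 0.30 for 55 without.

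The summed share of the members, that is their UMIs as a percentage of all UMIs of a class, was highest in mural and muscle cells and lowest in neutrophils and B cells before injury. In the Uninjured library mural cells (pericytes and vascular smooth muscle) had 4.55%, Pax7 positive muscle cells 2.36%, macrophages 2.23%, Schwann cells 2.11%, dendritic cells 2.04%, NK and T cells 1.85%, mesenchymal cells 1.81%, B cells 1.48% and neutrophils 1.11%. Neutrophils, which are known to hold few mitochondria, stayed between 1.08% and 1.30% in all 4 libraries. Myog positive muscle cells, which are differentiating myoblasts, had 3.24% at 3 dpi and 4.17% at 7 dpi, the highest share of any class in each of these libraries.

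**Figure D1:**
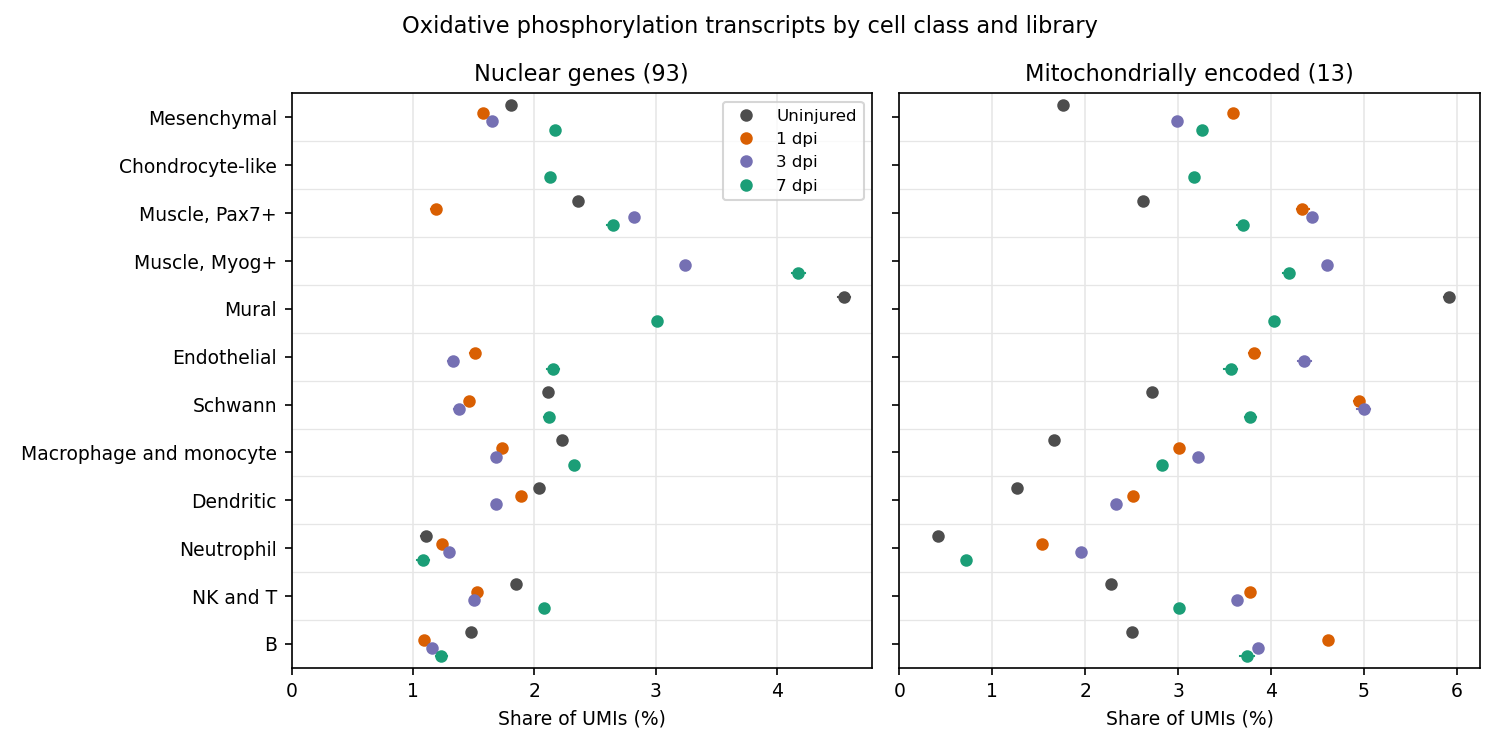
Summed UMIs of the 93 nuclear members (left) and of the 13 mitochondrially encoded subunits (right) as a percentage of all UMIs of a class (horizontal axes), with a row per marker-gated class and 1 point per library. On the left mesenchymal cells lay at 1.81%, 1.58%, 1.65% and 2.17% in the order Uninjured, 1 dpi, 3 dpi and 7 dpi, mural cells at 4.55% and 3.01%, and neutrophils between 1.08% and 1.30%; on the right the Uninjured point of mesenchymal cells, 1.76%, lay below the injured ones.

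From the Uninjured library to 1 dpi the pooled share was lower in 7 of the 8 classes with at least 50 cells at both times, with neutrophils the exception. It went from 1.81% to 1.58% in mesenchymal cells, a ratio of 0.874 (0.871 to 0.876). The lowest ratio was in Pax7 positive muscle cells, which went from 2.36% in 147 cells to 1.19% in 72 cells, a ratio of 0.503. The other ratios were 0.692 in Schwann cells, 0.738 in B cells, 0.776 in macrophages, 0.831 in NK and T cells and 0.925 in dendritic cells. In neutrophils the share was 1.11% in 53 Uninjured cells and 1.24% in 551 cells at 1 dpi, a ratio of 1.12 (1.08 to 1.16). The median neutrophil, however, had 0.880% in the Uninjured library and 0.751% at 1 dpi, and the pooled value of 1.24% lay above the upper quartile of cells (1.10%), so the pooled value does not describe the typical neutrophil.

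From 3 dpi to 7 dpi the share was higher in 7 of 9 classes. Endothelial cells had the highest ratio, 1.62, with 1.33% at 3 dpi and 2.15% at 7 dpi. The ratio was 1.54 in Schwann cells, 1.39 in macrophages and in NK and T cells, 1.32 in mesenchymal cells, 1.29 in Myog positive muscle cells and 1.06 in B cells. Pax7 positive muscle cells (2.82% and 2.65%, ratio 0.940) and neutrophils (1.30% and 1.08%, ratio 0.827) were lower. For neutrophils the median over cells again went the other way, from 0.752% to 0.868%. Since most classes stood on the same side at 1 dpi and again at 7 dpi, a property of the library as a whole and one of the cells cannot be told apart.

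The middle step, from 1 dpi to 3 dpi, had no shared direction, with 4 of 9 classes higher and 5 lower. Mesenchymal cells went from 1.58% to 1.65%, a ratio of 1.04. This sign depended on the mixture of cycling cells. Among mesenchymal cells with at least 2 of 6 cycling markers the share was 2.0% at 1 dpi and 1.90% at 3 dpi, a ratio of 0.951, and among the others it was 1.55% and 1.53%, a ratio of 0.992. Cycling cells had the higher share in every library (2.41% against 1.79% in the Uninjured library and 2.34% against 2.11% at 7 dpi), and they numbered 137 of 3819 mesenchymal cells at 1 dpi and 931 of 6198 at 3 dpi. Cycling cells were also deeper, with medians of 15298, 18466, 17495 and 4622 UMIs from Uninjured to 7 dpi. The others had 9120, 8003, 5056 and 3178. The part of depth in their shares was not tested. The mean taken per cell put the step at -0.01 on the log2 scale, so the pooled value of 0.06 gives no direction for the single cell.

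Mesenchymal cells, the class in which the study follows the origin of cartilage and bone, had enough UMIs to give 90 of the 93 members a value at 1 dpi against Uninjured, with a minimum of 100 UMIs in one library and 10 in the other. Levels are given as CPM (UMIs per 1000000 UMIs of the class). A UMI counts a transcript whatever its length, and how well each transcript was captured was not measured, so a difference in CPM between genes is a difference in captured transcripts. In Uninjured mesenchymal cells the most abundant members were Ndufa13, Ndufa2 and Ndufb9 of complex I, Ndufaf8, Ndufaf2 and Ndufaf3 among the assembly factors, Sdhb, Sdhd and Sdha of complex II, Uqcrh, Uqcrb and Uqcr10 of complex III, Cox8a, Cox6c and Cox7c of complex IV and Atp5e, Atp5l and Atp5h of complex V.

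At 1 dpi 71 of the 90 members were lower than in the Uninjured library and 19 were higher. The median member stood at -0.20 on the log2 scale, beside 0.16 for all 12199 genes measured. At a threshold of 1.5-fold 7 members (7.78%) were lower, against a background of 9.83% of all genes, and 4 members (4.44%) were higher, against 19.4%. The members thus differed as a group by a small amount, and a smaller share of them passed the threshold than of genes at large. By complex the summed CPM went from 5931 to 5074 for complex I (ratio 0.855), from 1733 to 1570 for complex III (0.906), from 4195 to 3631 for complex IV (0.866) and from 5205 to 4644 for complex V (0.892). Complex II did not share this direction, with 304 CPM in the Uninjured library and 317 at 1 dpi, a ratio of 1.04 (1.02 to 1.06).

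The complex II subunits split among themselves. Sdha, the flavoprotein that oxidises succinate (chromosome 13, 74322254 to 74350280 in GRCm38), had 63.4 CPM in the Uninjured library, 105 at 1 dpi, 90.8 at 3 dpi and 63.6 at 7 dpi, and was 1.66-fold higher at 1 dpi than in the Uninjured library (1.59 to 1.73). Sdhc, a membrane anchor, had 50.9, 78.9, 80.1 and 70.0 CPM in the same order and was 1.55-fold higher at 1 dpi. Sdhb, the iron-sulfur subunit, had 118, 74.8, 93.3 and 118 CPM and was 1.58-fold lower at 1 dpi. Sdhd, the other anchor, had 71.8, 58.0, 63.1 and 79.0 CPM. At 1 dpi Sdha and Sdhc were thus above their Uninjured levels while Sdhb and Sdhd were below them, although the assembled complex holds the subunits in equal number, and at 7 dpi Sdha and Sdhb stood close to their Uninjured levels. The split also followed transcript length, with 2900 bases for Sdha, 3171 for Sdhc, 1142 for Sdhb and 1231 for Sdhd. At 1 dpi ratios were higher for long genes at large, as given further on, and the part of length in this split was not tested.

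The other members past the threshold at 1 dpi included 4 forms with restricted expression, all of them lower. On the high side were Cox6a1, a widely expressed subunit of complex IV (172 CPM in the Uninjured library and 261 at 1 dpi), and Ndufaf5, an assembly factor (5.00 and 7.53 CPM), followed below the threshold by Ndufs1, the largest subunit of complex I (28.5 and 39.6 CPM). On the low side Cox4i2 was 5.85-fold lower (3.17 to 12.0, from 143 and 11 UMIs), Cox8b was 4.28-fold lower (6.04 and 1.41 CPM), Ndufa4l2 was 3.39-fold lower (75.4 and 22.2 CPM) and Cox7a1 was 2.41-fold lower (12.4 and 5.16 CPM). Cox8b and Cox7a1 are the muscle and heart forms of their subunits, and the summed level of 8 muscle fibre markers in the same cells was 24.0 CPM in the Uninjured library and 12.4 at 1 dpi. The part of stray fibre RNA in these low values was not tested. Atp5md (250.0 and 158 CPM), Sdhb and Ndufa3 (194 and 127 CPM) completed the list.

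**Figure D2:**
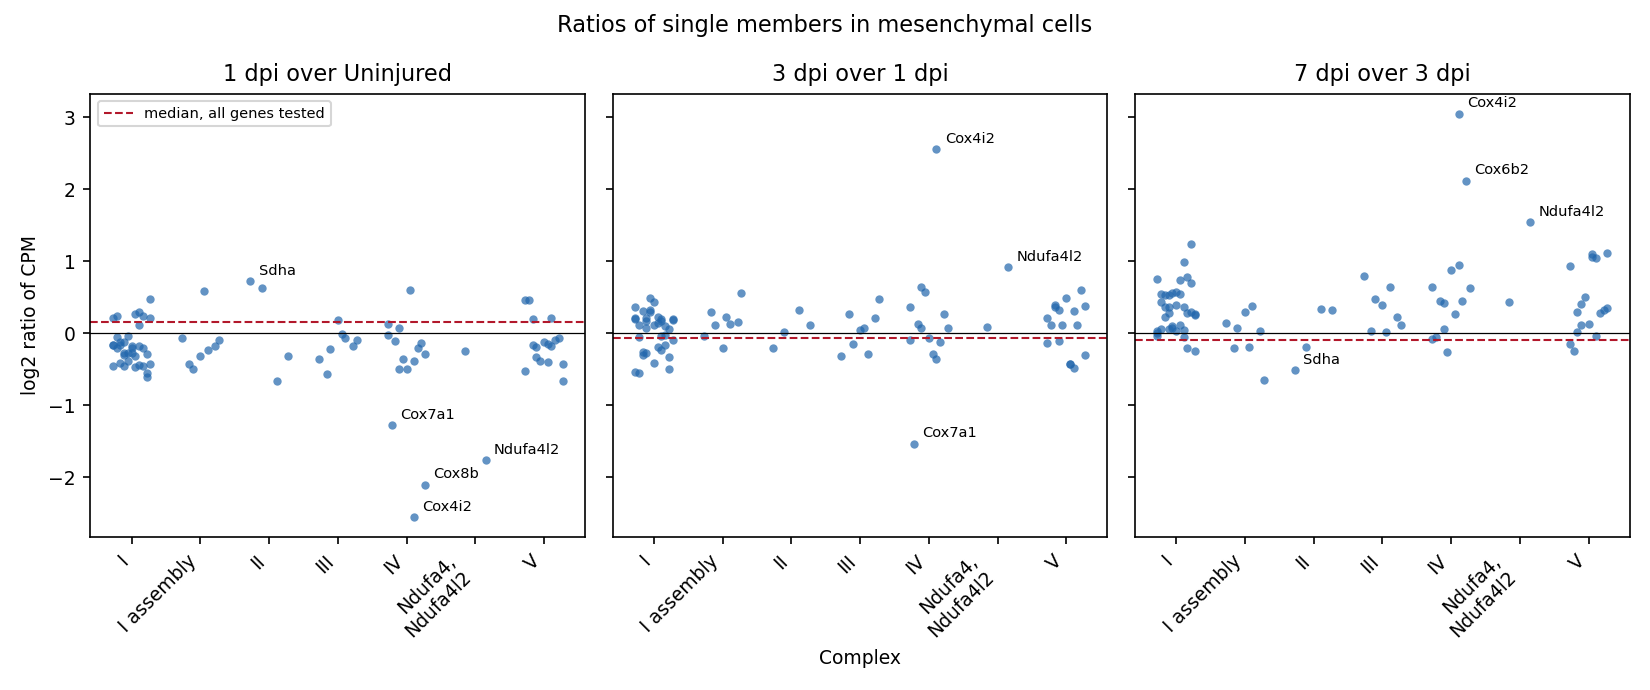
Log2 ratio of CPM (vertical axis) of each measured member, 1 point each and ordered by complex along the horizontal axis, in mesenchymal cells for the 3 steps between neighbouring libraries, with a dashed line at the median of all genes measured. Most points lay below 0 at 1 dpi (71 of 90) and above 0 at 7 dpi (74 of 89), and Cox4i2 was past 5-fold in all 3 steps.

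From 1 dpi to 3 dpi 56 of 89 members were higher and 33 lower, with a median of 0.11 on the log2 scale beside -0.06 for all genes. Only 4 members (4.49%) were at least 1.5-fold higher, against a background of 10.7%, and 1 (1.12%) was at least 1.5-fold lower, against 13.7%. The members higher at 3 dpi were Cox4i2 (0.310 and 1.83 CPM, from 11 and 102 UMIs), Ndufa4l2 (22.2 and 41.9 CPM), Cox5a (157 and 245 CPM) and Atp5g1, a copy of the c-ring subunit of complex V (243 and 369 CPM), followed by the supercomplex factor Cox7a2l at 1.48-fold. Cox7a1 was 2.88-fold lower (5.16 and 1.79 CPM), and after it came 4 small subunits below the threshold, Ndufa6, Ndufa1, Ndufa3 and Atp5k, at 1.47-fold to 1.40-fold lower.

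From 3 dpi to 7 dpi 74 of 89 members were higher and 15 lower. The median was 0.30 on the log2 scale, whereas all genes measured had a median of -0.09. At least 1.5-fold higher were 20 members (22.5%), against a background of 13.3%, and at least 1.5-fold lower was 1 member (1.12%), against 16.2%. All 8 subunits of complex III were higher (1568 and 2063 CPM in sum, ratio 1.32), and the sums of complex I (5126 and 6612, ratio 1.29), complex IV (3815 and 5183, ratio 1.36) and complex V (5011 and 6688, ratio 1.33) were similar to it. Complex II again stood apart from these sums, with 327 CPM at 3 dpi and 331 at 7 dpi, a ratio of 1.01 (0.990 to 1.03). Its members Sdha, Sdhc and Sdhd have transcripts longer than 1187 bases. Members above that length had a median of 0.08 on the log2 scale at this step, as given further on, beside 0.06 for complex II. The part of length in the complex II ratio was not tested. The assembly factors of complex I had a ratio of 1.05.

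The 3 members with the highest ratios at 7 dpi were tissue-restricted or hypoxia-linked forms. Cox4i2 had 1.81 CPM in the Uninjured library, 0.310 at 1 dpi, 1.83 at 3 dpi and 15.1 at 7 dpi, and was 8.26-fold higher at 7 dpi than at 3 dpi (6.72 to 10.2). Cox6b2, known as the testis form of its subunit, had 2.36, 2.14, 2.58 and 11.3 CPM and was 4.36-fold higher (3.63 to 5.27). Ndufa4l2, known as a target of the hypoxia-inducible factor HIF1, had 75.4, 22.2, 41.9 and 122 CPM and was 2.90-fold higher (2.77 to 3.04). All 3 were highest at 7 dpi, and Cox4i2 and Cox6b2 had been below 3 CPM in every earlier library. Mural cells also carry these genes, and 8 mural markers in the same mesenchymal cells summed to 24.1, 15.1, 22.8 and 134 CPM, with Rgs5 at 0.592 CPM at 3 dpi and 55.6 at 7 dpi. The part of mural RNA or mural-like cells in these values was not tested.

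The other members past the threshold at 7 dpi were widely expressed and mostly small subunits. They were Ndufa3, Ndufc1, Ndufa7, Ndufa1, Ndufb2 and Ndufb4 of complex I, Uqcr10 and Uqcr11 of complex III, Cox7c, Cox6c, Cox7b and Cox5b of complex IV and Atp5md, Atp5e, Atp5mpl, Atp5k and Atp5j2 of complex V, with ratios from 1.55 for Cox5b to 2.36 for Ndufa3. Atp5e, the epsilon subunit of complex V, had 705 CPM in the Uninjured library, 534 at 1 dpi, 399 at 3 dpi and 855 at 7 dpi. Ndufa3 had 194, 127, 90.4 and 214 CPM, and Atp5md had 250.0, 158, 129 and 279 CPM. These 3 genes were at their lowest at 3 dpi and above their Uninjured level at 7 dpi. They were picked from the members past the threshold at this step, which favours a low value at 3 dpi. The members lower at 7 dpi were the assembly factor Ndufaf4 (37.3 and 23.8 CPM, 1.57-fold), and below the threshold Sdha (1.43-fold), Cox7a2l (1.19-fold), Atp5g3 (1.18-fold) and Ndufs1 (1.18-fold).

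The size of a member's ratio at 7 dpi varied with the length of its transcript. Members were split by the length of the longest annotated coding transcript (GENCODE M21, GRCm38) into 3 bins with limits at 697 and 1187 bases, and the other genes into the same bins. At 7 dpi over 3 dpi the median log2 ratio was 0.44 for short members, of which 26 of 27 were higher, 0.29 for those of middle length and 0.08 for long members. The rank correlation with length was -0.46 across the 89 members, which share libraries and are not independent. The other genes measured had medians of 0.39, 0.18 and -0.12 in the same bins and a rank correlation of -0.25. Of the 173 other short genes 127 were higher and 46 lower at 7 dpi. The median of short genes was thus higher in both sets. By these bins the median of the members was close to that of the other genes in the short bin and further above it in the long bin. The long bin has no upper limit and held 31 members and 10884 other genes, whose lengths were not matched. Which annotated form was expressed was not measured. Ndufb2 (4371 bases) and Atp5md (2733 bases), both past the threshold at 7 dpi, counted as long by their longest form. Whether the capture or fragmentation of short transcripts differed between the libraries was not tested.

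**Figure D3:**
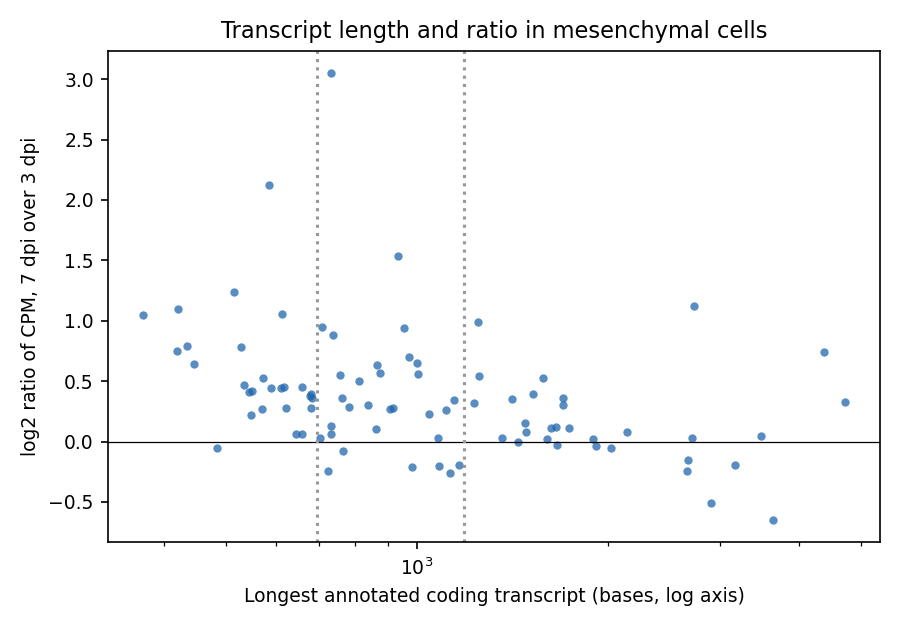
Log2 ratio of CPM at 7 dpi over 3 dpi in mesenchymal cells (vertical axis) against the length of the longest annotated coding transcript in bases (horizontal log axis), with 1 point per measured member and dotted lines at the bin limits of 697 and 1187 bases. From the short to the long bin the medians of the points were 0.44, 0.29 and 0.08.

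At 1 dpi over Uninjured the order by length was the reverse, with a rank correlation of 0.22 across 90 members and 0.32 across the other genes, and medians of -0.21, -0.29 and -0.09 for short, middle and long members and -0.19, -0.32 and 0.20 for the other genes. The medians of short and middle-length members were therefore close to those of the other genes in the same bins, and that of long members was lower. The long bin has no upper limit and held 31 members and 10635 other genes, whose lengths were not matched. From 1 dpi to 3 dpi the medians were -0.12, 0.20 and 0.16 for members and 0.04, 0.24 and -0.08 for the other genes.

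The 13 subunits encoded in mitochondrial DNA went the opposite way at 1 dpi. Their summed share in mesenchymal cells was 1.76% in the Uninjured library, 3.59% at 1 dpi, 2.99% at 3 dpi and 3.26% at 7 dpi, and at 1 dpi it was higher than in the Uninjured library in all 8 classes compared, by 1.65-fold in NK and T cells to 3.68-fold in neutrophils. Nuclear members per mitochondrially encoded UMI accordingly numbered 1.03 in Uninjured mesenchymal cells, 0.439 at 1 dpi, 0.550 at 3 dpi and 0.667 at 7 dpi. In macrophages the same figure was 1.34, 0.575, 0.521 and 0.825, and in neutrophils 2.65, 0.804, 0.669 and 1.51. In both classes the Uninjured library stood above all injured ones. Cells above 10% mitochondrial UMIs had been left out, and without this limit the mesenchymal values were 1.02, 0.413, 0.521 and 0.636. The neutrophil values without it were 2.65, 0.772, 0.624 and 1.05, the last from 96 cells in place of 94. The median neutrophil had 0.237% mitochondrial UMIs in the Uninjured library and 0.533% at 1 dpi, beside pooled shares of 0.418% and 1.54%. The pooled neutrophil values therefore do not describe the typical cell. A high share of mitochondrial UMIs also marks damaged cells, and its part in these values was not tested.

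Within the mitochondrial genome 2 of the 13 genes stood against the rest, both of them short and each overlapping its neighbour on a shared transcript, so that reads from the overlap cannot be assigned. In mesenchymal cells mt-Nd4l had 653 CPM in the Uninjured library, 300.3 at 1 dpi, 165 at 3 dpi and 412 at 7 dpi, and mt-Atp8 had 183, 119, 64.0 and 164 CPM. By contrast mt-Nd1 had 774, 2121, 1373 and 1431 CPM, and mt-Atp6, the neighbour of mt-Atp8, had 3309, 7563, 7260 and 7447 CPM. Another short gene, mt-Nd3, had 261, 651, 332 and 676 CPM. Both mt-Nd4l and mt-Atp8 thus had their lowest level at 3 dpi.

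The gene lists around the respiratory chain differed in direction at 1 dpi. In mesenchymal cells the summed level of 12 citrate cycle genes was 1.21-fold that of the Uninjured library. Of these genes 4 were at least 1.5-fold higher and 1 lower. That of 12 glycolysis rows, 11 of them measured, was 1.24-fold with 3 higher and 0 lower. That of 9 regulators of mitochondrial biogenesis, 8 of them measured, was 1.27-fold with 2 higher and 0 lower. Of all genes measured at this step 19.4% were at least 1.5-fold higher and 9.83% lower. With so few genes per list, these counts give no result beside that background. The 78 proteins of the mitochondrial ribosome had a ratio of 0.891, with 2 higher and 2 lower, close to the members' own 0.874, and the 6 electron carriers and inhibitor had one of 0.917, with none past the threshold. Glycolysis was the list with the clearest step from 1 dpi to 3 dpi, with a summed ratio of 1.64, beside 1.04 for the members. Of its 11 measured rows 8 were at least 1.5-fold higher, against a background of 10.7% of all genes. From 3 dpi to 7 dpi the ratio was 1.16 for glycolysis, 0.944 for the citrate cycle, 0.808 for the regulators and 1.08 for the mitochondrial ribosome, so the members' 1.32 was not shared by these lists. Among the electron carriers and inhibitor (ratio 1.35), Atpif1, the inhibitor of complex V, had 249 CPM at 3 dpi and 541 at 7 dpi.

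Macrophages and monocytes had a larger difference at 1 dpi than mesenchymal cells. The comparison holds 237 Uninjured cells against 1597 at 1 dpi, and 83 members were measured. The gate takes in monocytes and resident macrophages together, and their mix differed: the monocyte genes Ly6c2, Ccr2, Plac8 and Chil3 summed to 2063 CPM in the Uninjured library and 5293 at 1 dpi, and Lyve1, Folr2, Cd163 and Mrc1, known from resident macrophages, to 269 and 302 CPM. Single genes differed in direction within both lists. Ccr2 was lower at 1 dpi (761 and 648 CPM), unlike the other monocyte genes. Cd163 (34.2 and 4.90 CPM) and Lyve1 (3.58 and 0.158 CPM, from 7 and 2 UMIs) were lower, Folr2 was higher (46.0 and 108 CPM) and Mrc1 had 185 and 189 CPM. The part of this mix in the members' values was not tested. Of the 83 members 68 were lower and 15 higher, with a median of -0.36 on the log2 scale beside 0.20 for all genes, and the sum went from 2.23% to 1.73% (ratio 0.776, 0.768 to 0.784). By the length bins given above, the medians were -0.42, -0.39 and -0.27 for short, middle and long members. The other genes had -0.33, -0.28 and 0.26 in the same bins. Short and middle-length genes at large were thus also lower, and the part of length in the members' values was not tested. At least 1.5-fold lower were 14 members (16.9%), against a background of 9.31%, and at least 1.5-fold higher was 1 member (1.20%), against 28.6%. When the CPM were computed without ribosomal, mitochondrial, collagen and haemoglobin UMIs, 29 members passed the threshold in place of 15, with 28 lower and 1 higher. The share of all genes was not computed with this scaling, so the count of 29 has no background beside it.

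Complex III (ratio 0.727) and complex V (0.734) were lower in macrophages by more than complex I (0.802) and complex IV (0.811), and complex II had a ratio of 0.921. Cox7a2l, a factor that joins complexes III and IV, had 245 CPM in the Uninjured library, 118 at 1 dpi, 324 at 3 dpi and 294 at 7 dpi, and was the member with the largest difference at 1 dpi (2.08-fold lower). Uqcrfs1, the Rieske iron-sulfur protein of complex III, had 161, 84.5, 98.1 and 133 CPM. Ndufa6 had 329, 178, 190.0 and 311 CPM. The c-ring gene Atp5g2 had 486, 274, 405 and 475 CPM, and Ndufv1, which binds NADH, had 63.9, 37.1, 44.7 and 78.4 CPM. All 5 were lowest at 1 dpi and close to their Uninjured level or above it at 7 dpi, apart from Uqcrfs1.

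Sdhc, second to Sdha in mesenchymal cells, was the member with the highest ratio at 1 dpi in macrophages, with 41.4, 77.3, 68.0 and 80.1 CPM (1.87-fold higher at 1 dpi, from 81 and 978 UMIs). It was followed below the threshold by Cox6a1 at 1.39-fold, Ndufs1 and Ndufb6 at 1.33-fold and Ndufaf3. Sdhc, Cox6a1 and Ndufs1 thus stood on the high side at 1 dpi in both classes. The cells of a library share its preparation, so the classes are not independent of each other. In macrophages the 9 regulators of biogenesis, 5 of them measured, had a summed ratio of 1.30. Glycolysis had one of 0.870, on the other side from mesenchymal cells (1.24), a difference that was not tested.

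In muscle cells at 3 dpi the members were higher in Myog positive than in Pax7 positive cells, within a single library. Of 80 measured members 74 were higher and 6 lower, with a median of 0.22 on the log2 scale beside 0.01 for all genes. No member passed 1.5-fold in either direction, against backgrounds of 4.77% for higher and 7.99% for lower. The summed share was 2.82% in 174 Pax7 positive cells and 3.24% in 109 Myog positive cells, a ratio of 1.15 (1.14 to 1.16), and with each cell given equal weight the difference was 0.57 on the log2 scale in place of 0.20. The complexes were close to each other, from 1.13 for complex IV to 1.22 for complex III. The highest ratios were those of Ndufaf2, Uqcrfs1, Ndufs6, Ndufs5 and Ndufs1, at 1.36 to 1.28, and the lowest those of Atp5g2, Ndufv1, Cox7a2l, Ndufa1 and Ndufa3, at 0.920 to 0.980.

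By contrast the muscle fibre markers were 23.2-fold higher in Myog positive cells, at 1452 CPM against 62.5, so the members' difference was small beside that of the contractile genes. The citrate cycle had a ratio of 1.19 and the biogenesis regulators one of 0.959. By 7 dpi the Myog positive cells, 72 in number, had 10956 CPM of complex I, 10572 of complex IV and 13923 of complex V, against 8380, 7597 and 10719 at 3 dpi.

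The tissue-restricted forms of complex IV separated the classes more sharply than the sums did. Cox4i2 made up 0.332% of all Cox4i UMIs in Uninjured mesenchymal cells, 0.0520% at 1 dpi, 0.239% at 3 dpi and 2.04% at 7 dpi. In mural cells it was 17.8% (15.5 to 20.2, 191 of 1074 UMIs) in the Uninjured library and 19.5% (18.1 to 21.0) at 7 dpi. In chondrocyte-like cells at 7 dpi it was 16.6% (16.1 to 17.1, 3876 of 23341 UMIs), a share like that of mural cells. In endothelial cells at 7 dpi it was 5.23% (2.95 to 8.47, 15 of 287 UMIs), after 0 of 248 and 0 of 295 UMIs at 1 dpi and 3 dpi. The 8 mural markers summed to 802 CPM in these endothelial cells at 7 dpi, and their part in this share was not tested. Ndufa4l2 followed the same classes, with 15.6%, 6.09%, 10.3% and 19.7% of the Ndufa4 pair in mesenchymal cells, 47.1% and 81.1% in mural cells and 33.8% in chondrocyte-like cells.

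**Figure D4:**
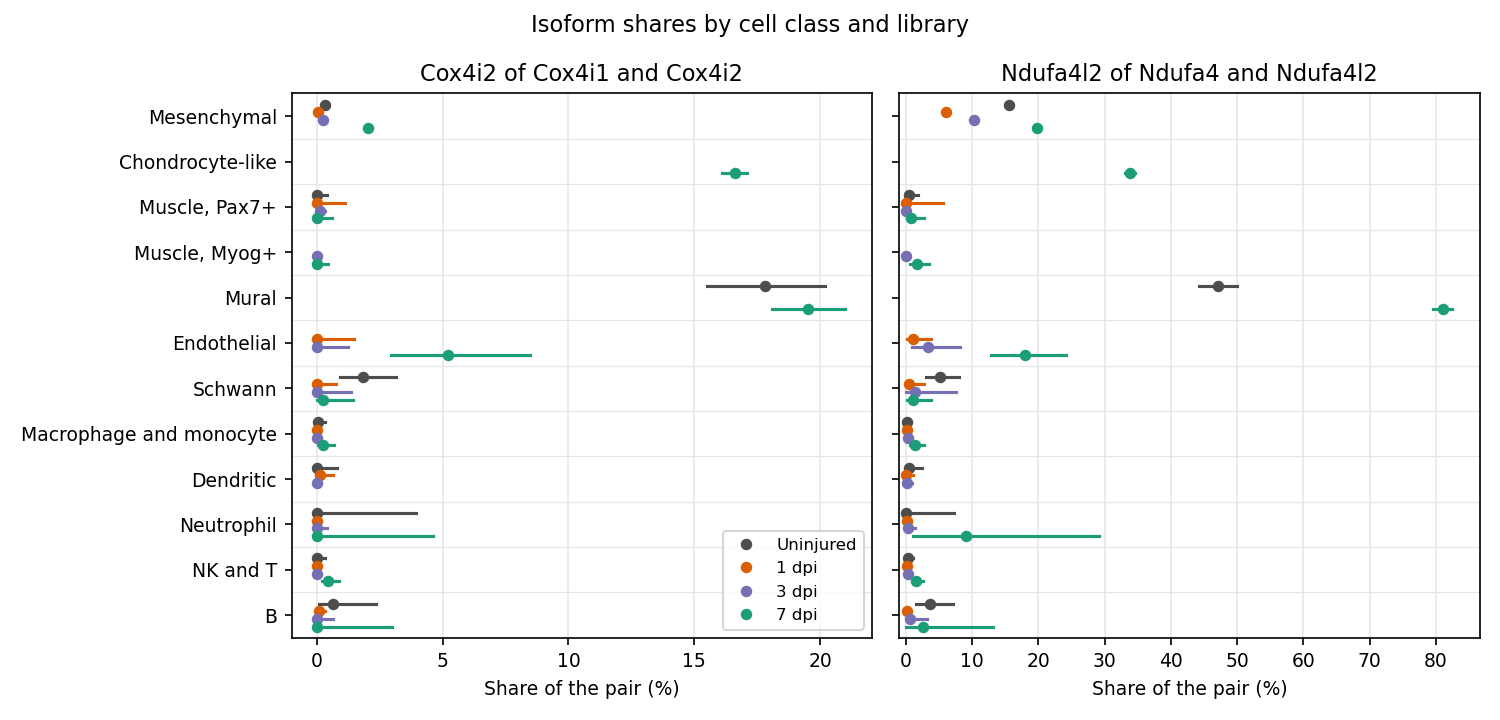
Share of Cox4i2 (left) and Ndufa4l2 (right) in the UMIs of its pair (percent, horizontal axes) with a row per class, 1 point per library and exact 95% intervals. Cox4i2 was near 0 in most classes and reached 5.23% in endothelial cells at 7 dpi, 16.6% in chondrocyte-like cells and 17.8% and 19.5% in mural cells. Ndufa4l2 reached 81.1% in mural cells at 7 dpi.

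The muscle forms were at low level in muscle cells. In the Uninjured muscle class as a whole, 186 cells, Cox6a2 had 6 UMIs (1.68% of its pair), Cox7a1 20 (2.42%) and Cox8b 31 (1.45%), and at 1 dpi none of the 3 had a UMI in 78 cells, where the intervals reach 4.4%, 4.99% and 1.56%. Cox6a2 had 2 UMIs in Myog positive cells at 3 dpi (0.321% of the Cox6a pair) and 16 at 7 dpi (9.36%, 5.44 to 14.7), and none in Pax7 positive cells, where a count of 0 allows 3.19 CPM in the Uninjured library and 5.83 CPM at 7 dpi. Cox8b was at 1.02 CPM in Myog positive cells at 3 dpi and 28.5 CPM at 7 dpi. Cox7a1 was at 17.9 and 20.3 CPM in the same cells. In mesenchymal cells Cox7a1 made up 3.91% of its pair in the Uninjured library, 1.92% at 1 dpi, 0.735% at 3 dpi and 0.522% at 7 dpi, and Cox8b had 0.888%, 0.293%, 0.102% and 0.0968% of its own. The fibre markers in the same cells stood at 24.0, 12.4, 11.2 and 35.4 CPM, so the order was shared up to 3 dpi and not at 7 dpi.

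Cox6a2 was also found outside muscle, in cells with few fibre transcripts. In the dendritic class it had 0 UMIs in the Uninjured library, which allows 4.58 CPM, then 122 UMIs (105 CPM) at 1 dpi and 32 UMIs (13.2 CPM) at 3 dpi, that is 26.3% (22.3 to 30.5) and 6.15% of the Cox6a pair. The UMIs at 1 dpi lay in 20 of 94 cells, and the 8 fibre markers stood at 5.17 CPM in the same class. Cells were then picked, after these values were seen, for having at least 3 Cox6a2 UMIs. At 1 dpi there were 50 of them, 14 in the dendritic class and 34 in no class. A UMI of Siglech, a receptor known from plasmacytoid dendritic cells, was found in 43 of the 50 (86.0%) and in 0.292% of the other kept cells, and Ccr9, a chemokine receptor of the same cells, was found in 62.0% and 0.730%. Bst2 and Tcf4, measured beside them, separated the picked cells less. Each was found in 98.0% of the picked cells, against 60.0% and 60.6% of the other kept cells. In dendritic cells below the minimum they were found in 93.8% and 65.0%.

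At 3 dpi the same minimum picked 30 cells, of which 25 (83.3%) had a Siglech UMI, against 1.11% of the other cells, and 66.7% had a Ccr9 UMI, against 1.04%. In dendritic cells below the minimum at 1 dpi the Siglech share was 3.75%, with a median depth of 11835 UMIs against 9022 in the picked cells. At 7 dpi 5 of 13 picked cells had a Siglech UMI, and in the Uninjured library 0 of 4. Over all kept cells, whatever their Cox6a2 count, cells with UMIs of both Siglech and Ccr9 held 55.7% of the 499 Cox6a2 UMIs at 1 dpi (41 cells), 56.7% of 268 at 3 dpi (95 cells) and 24.8% of 137 at 7 dpi (9 cells). In the Uninjured library they held 0 of 72 (2 cells). Kept cells with a Siglech UMI numbered 3 in the Uninjured library, 71 at 1 dpi, 164 at 3 dpi and 11 at 7 dpi. The Uninjured library thus held few cells of this kind in which Cox6a2 could be measured.

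Cox6b2 was spread differently again. It had 58.0, 28.4 and 16.5 CPM in dendritic cells from Uninjured to 3 dpi, 33.7 and 35.6 CPM in mural cells, and 11.7, 25.1, 26.2 and 0 CPM in neutrophils, where the 0 of 94 cells at 7 dpi allows 18.8 CPM. In chondrocyte-like cells it had 11.6 CPM, close to the 11.3 CPM of the other mesenchymal cells at 7 dpi. Cox6b2 therefore did not follow the cartilage class as Cox4i2 did. Of the c-ring genes, Atp5g3 made up 21.9% of the 3 in Uninjured mesenchymal cells, 29.3% at 1 dpi, 23.6% at 3 dpi and 18.2% at 7 dpi, and Atp5g1 went from 34.8% through 32.1% and 36.2% to 41.5%. In macrophages Atp5g3 was also larger at 1 dpi (25.2%) than in the Uninjured library (16.6%).

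Chondrocyte-like cells and the other mesenchymal cells of 7 dpi were compared within that library. The class was set by at least 4 of 8 cartilage markers, Acan, Col9a1, Col9a3, Hapln1, Cnmd, Snorc, Col11a2 and Matn3, none of which is a member. The members as a sum differed little between these classes. The summed share was 2.13% in chondrocyte-like cells and 2.17% in the others, a ratio of 0.981 (0.978 to 0.984), and without ribosomal, mitochondrial, collagen and haemoglobin UMIs the log2 ratio was 0.03 in place of -0.03, so the sum gives no direction. Of 88 measured members 65 were lower and 23 higher, with a median of -0.07 beside -0.11 for all genes. By complex the ratios ran from 0.895 for the assembly factors and 0.936 for complex I to 1.02 for complex III. The glycolysis list had a summed ratio of 0.983 (0.976 to 0.990), with 4 measured rows higher, 7 lower and 0 past 1.5-fold.

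At least 1.5-fold higher were 2 members, against a background of 5.52%, and none was at least 1.5-fold lower, against 11.2%. These 2 were Cox4i2, with 143 CPM in chondrocyte-like cells and 15.1 in the others (9.47-fold, 8.79 to 10.2, from 3876 and 829 UMIs), and Ndufa4l2, with 222 and 122 CPM (1.82-fold, 1.76 to 1.89). Cox4i2 lies on chromosome 2 (152754173 to 152765037) and Ndufa4l2 on chromosome 10 (127514967 to 127517154, GRCm38). Their ubiquitous partners did not share the difference, with 719 and 724 CPM for Cox4i1 (ratio 0.993, 0.976 to 1.01) and 435 and 495 CPM for Ndufa4 (ratio 0.879). After them came Atp5md, Atp5g2 and Cox6a1 at 1.20-fold to 1.17-fold, and at the low end Ndufaf5 (1.35-fold lower), Ndufv3, Ndufv1, Sdhb and Ndufs7.

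The Cox4i2 level followed the number of cartilage markers. Over the lineage cells of 7 dpi grouped by how many of the 8 markers had a UMI, Cox4i2 had 9.89 CPM with none, 13.1 with 1, 19.4 with 2, 24.2 with 3, 52.5 with 4, 87.9 with 5, 99.2 with 6, 129.8 with 7 and 202 CPM with all 8. Each group was above the one before it, on both sides of the class limit of 4 markers. Over the same groups Cox4i1 stayed between 701 and 745 CPM. Ndufa4l2 went from 113 CPM with none to 243 with all 8, while Ndufa4 went from 476 to a highest value of 510.4 and then to 387. The groups held 659 to 3499 cells. The number of markers with a UMI also grows with depth. From no marker to all 8 the median depths of the groups were 2607, 3806, 5083, 4129, 3337, 2747, 2860, 3177 and 4952 UMIs. The part of depth in these values was not tested.

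**Figure D5:**
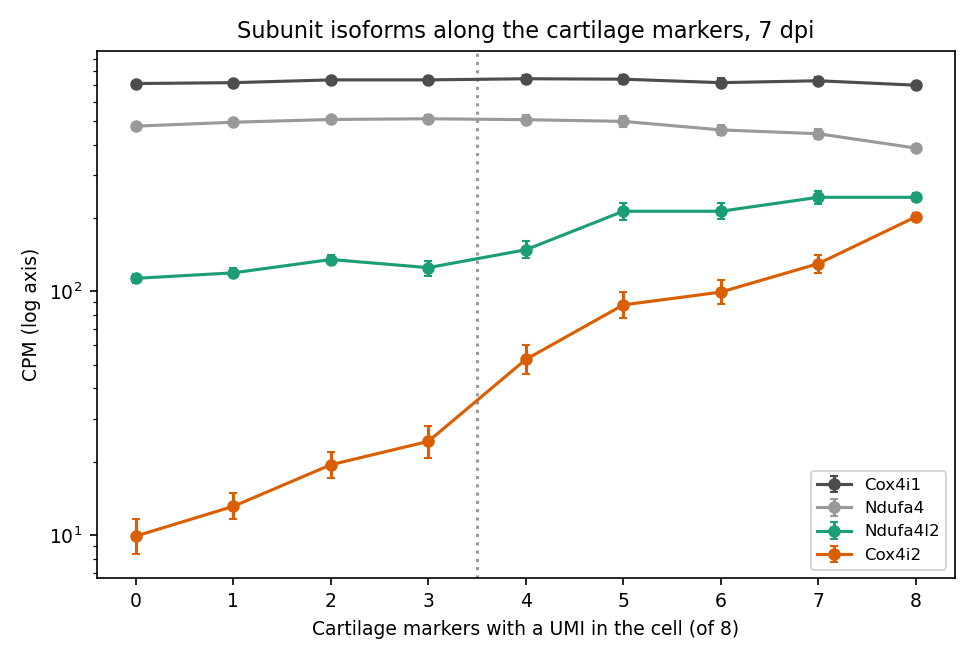
CPM at 7 dpi (vertical log axis) of Cox4i1, Ndufa4, Ndufa4l2 and Cox4i2 in cells of the mesenchymal lineage grouped by the number of cartilage markers with a UMI (horizontal axis, 0 to 8), with exact 95% intervals and a dotted line at the limit of the chondrocyte-like class. Cox4i2 went from 9.89 to 202 CPM, whereas Cox4i1 stayed between 701 and 745 CPM.

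The UMIs were spread over many cells. Cox4i2 had a UMI in 1538 of 5094 chondrocyte-like cells (30.2%, median depth 3629 UMIs) and in 583 of 9736 other mesenchymal cells (5.99%, 3505 UMIs). In macrophages 3 of 260 cells had a Cox4i2 UMI (1.15%, 3869 UMIs). With every cell thinned to 2000 UMIs the shares were 18.3%, 3.09% and 0.270%, leaving out 970, 2493 and 13 shallower cells. Ndufa4l2 had a UMI in 42.9% of chondrocyte-like cells, 26.7% of other mesenchymal cells and 1.92% of macrophages. The order was thus the same at equal depth. Macrophages do not stand for every other class. Endothelial cells at 7 dpi, 86 in number, had 41.6 CPM of Cox4i2 and 97.1 CPM of Ndufa4l2, against 2.50 and 5.84 CPM in macrophages. Free RNA was not measured, and its part in these values was not tested.

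Since mural cells also carried Cox4i2, their markers were measured beside it. The 8 mural markers summed to 169 CPM in chondrocyte-like cells and to 134 CPM in the other mesenchymal cells of 7 dpi, where they had been 24.1, 15.1 and 22.8 CPM in the earlier libraries, and to 8617 and 9073 CPM in mural cells. All 8 had a UMI in chondrocyte-like cells, with Rgs5 at 82.4 CPM. Per mural marker UMI there were 0.844 UMIs of Cox4i2 in chondrocyte-like cells, 0.113 in the other mesenchymal cells and 0.0288 and 0.0286 in mural cells. For Ndufa4l2 the figure was 1.31 in chondrocyte-like cells, 0.0807 and 0.121 in mural cells, and 3.13, 1.47, 1.84 and 0.910 in mesenchymal cells from Uninjured to 7 dpi, so that per mural UMI it was lower at 7 dpi than at 3 dpi while its CPM was higher. In both cases the ratio in chondrocyte-like cells was above that of mural cells. The same 8 markers set the mural class, however, and every other class needed a lead over them. This order therefore follows in part from the gates and cannot show where the UMIs came from. The part of mural RNA or mural-like cells in these values was not tested. The 7 dpi mesenchymal cells without any cartilage marker, at 9.89 CPM of Cox4i2, were above the 1.83 CPM of all mesenchymal cells at 3 dpi.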

How the data were processed

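Cells were freed from tibial muscle with collagenase and profiled on the 10x Genomics platform. Per the labels, the authors aligned the reads and made the UMI counts with Cell Ranger 5.0.0 and STAR, and the submitters' processing notes name mm10 and Seurat 3.1.1. The deposited values are raw UMI counts per gene and cell barcode. The labels mention down-sampling of reads, and whether it came before these counts is not given in the sources used here. Reads that map to several places are as a rule not counted, so members with near-identical pseudogenes are uncertain.

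Cells within 2 SD of the log10 UMIs and genes of their library and with at most 10% mitochondrial UMIs were kept, after removal of the 7.5% with the highest Scrublet doublet scores in each library (scanpy 1.11.5, seed 0). A class needed UMIs of at least 3 of its 8 markers and a lead of at least 2 over every other list, and classes under 50 cells were not used. Counts were summed per class and library and given as CPM, with exact Poisson, Clopper-Pearson or conditional binomial 95% intervals. A count of 0 was read as allowing 3 counts. With 1 library per group no test was made. A member or gene was compared where it had 100 UMIs on one side and 10 on the other, and 1.5-fold was the threshold. Members named are the isoform pairs, the 5 with the largest ratio each way in each of the 6 comparisons, the 3 most abundant of each complex, those without UMIs and all past the threshold. Members, lists and comparisons were chosen with earlier results of these data known. The sums and folds were checked on simulated data. Computations used Python 3.11.15, numpy 2.4.6, scipy 1.17.1 and pandas 2.3.3. The alternatives tried were other gates, doublet and mitochondrial limits, another scaling, means over cells and other thresholds.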

Additional observations from a re-analysis of the deposited data

Results flagged for a closer look

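Some classes stood on the other side of 1 from mesenchymal cells at the same step, and none of these differences was tested, since each rests on 1 library per time point. At 1 dpi over Uninjured the summed share of the members had a ratio of 1.12 in neutrophils and 0.874 in mesenchymal cells. The median over cells was lower at 1 dpi in both classes, from 0.880% to 0.751% in neutrophils and from 1.76% to 1.45% in mesenchymal cells. At 3 dpi over 1 dpi it was 0.882 in endothelial cells, 0.943 in Schwann cells, 0.972 in macrophages, 0.89 in dendritic cells and 0.976 in NK and T cells, against 1.04 in mesenchymal cells. At 7 dpi over 3 dpi it was 0.94 in Pax7 positive muscle cells and 0.827 in neutrophils, against 1.32 in mesenchymal cells. The median neutrophil went from 0.752% to 0.868% over that step.

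The rule left out Ndufb1-ps, a row named as a pseudogene of a complex I subunit, which carried UMIs in every library. Over all kept cells it had 306 CPM in the Uninjured library, 299 CPM at 1 dpi, 169.9 CPM at 3 dpi and 288 CPM at 7 dpi. It was thus lowest at 3 dpi.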

How the results depend on the processing

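Of 40 alternative values of the 6 summed ratios, taken on the log2 scale, 25 lay within the counting interval of the reported one. Another 13 moved beyond it without a change of sign, including a value of 0.00, and 2 changed sign. The step from Uninjured to 1 dpi in mesenchymal cells (-0.19) was -0.21 without the mitochondrial limit, -0.25 as a mean over cells and -0.17 with single-marker gates. That from 1 dpi to 3 dpi (0.06) was 0.14 with CPM scaled without ribosomal, mitochondrial, collagen and haemoglobin UMIs and 0.12 with single-marker gates, and -0.01 as a mean over cells, a change of sign. That from 3 dpi to 7 dpi (0.40) was 0.45 with this scaling, 0.47 as a mean over cells and 0.32 with single-marker gates. The macrophage ratio (-0.37) was -0.47 with this scaling and -0.27 with single-marker gates. Chondrocyte-like over other mesenchymal cells (-0.03) was 0.03 with this scaling, a change of sign, and 0.00 as a mean over cells. Myog over Pax7 positive cells (0.20) was 0.17 with a stricter gate and 0.57 as a mean over cells. Members past the threshold numbered 11, 5 and 21 for the mesenchymal steps in order of time and 15 for macrophages. They numbered 36, 28, 46 and 49 at a lower threshold, 4, 2, 8 and 1 at 2-fold, and 29 for macrophages with the scaling above. No share of all genes was computed at these other thresholds or with this scaling, so those counts have no background. Where a cause is not given by the construction of an alternative, the cause was not tested. No paired analysis was possible because each group is 1 library. Depth limits the smaller classes, such as 72 Pax7 positive cells at 1 dpi.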
